A study of Mus musculus with 6 samples.

Results

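The ATF4 amino acid stress response was followed through 10 genes taken by name, Atf4, Ppp1r15a, Ddit3, Trib3, Chac1, Sesn2, Asns, Psat1, Phgdh and Slc3a2, in RNA of marginal zone B cells sorted from mouse spleen. Of these, 9 had a row in the deposited table of 14864 genes. Chac1, which encodes an enzyme that degrades glutathione, had none and was not measured. The table compared 3 libraries of WT mice with 3 of CK2α-cKO mice, in which CK2α, a catalytic subunit of protein kinase CK2, was conditionally deleted. Both groups were of the C57BL/6 strain and 8 weeks of age. The sources used here do not give the Cre driver, the deleted exons, the sort gates or whether each library came from its own animal, so the p-values measure a spread among libraries that may be technical in part or in full. Values of single libraries are given in the order of replicates 1, 2 and 3.

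ATF4 is a transcription factor whose protein is made when the initiation factor eIF2α becomes phosphorylated, by GCN2 when amino acids are short, by PERK when the endoplasmic reticulum is stressed, by PKR when double-stranded RNA is present or by HRI when haem is short or mitochondria are stressed. Short reading frames ahead of the coding sequence hold ATF4 back in resting cells and let it through under stress, so much of its control acts on translation and is not seen in mRNA levels. ATF4 and its partners of the C/EBP family switch on genes that make, import and charge amino acids, and genes that end the response (Ppp1r15a, Trib3) or carry it towards cell death (Ddit3). Marginal zone B cells are a subset poised for the differentiation into antibody-secreting cells.

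The libraries held 18778776 to 23503756 reads, recovered from the deposited values as described under the processing. The targeted gene Csnk2a1 had means of 3957 ± 105 (WT) and 4045 ± 87.6 (cKO) normalised reads with n = 3 and SD, a log2 difference of 0.03 ± 0.05 (SE) that did not pass the test (limma adjusted p = 0.734). The deletion was thus not seen in these values. A count over the whole gene may miss the loss of single exons, which was not tested, so the groups below are those of the labels. The sorted cells carried B cell transcripts at high levels in every library, with 32483 to 41122 normalised reads of Ms4a1 and 59691 to 76108 of the marginal zone marker Cr2, neither of them called. Of the 11 marginal zone markers 6 rose and 0 fell by the test described below, with a median log2 difference of 0.24. The 6 were Asb2 (log2 difference 1.29), Cd1d1 (0.70), Plac8 (0.50), Cd9 (0.50), Myof (0.46) and Mzb1 (0.24), and the call of Mzb1 was lost without WT replicate 1, 2 or 3 or cKO replicate 1 or 3 and with totals equalised without immunoglobulin genes (limma adjusted p up to 0.17). That of Cd1d1 was lost under robust moderation (0.0741). The T cell genes Cd3d, Cd3e and Cd3g had no row in the table. Of the 9 listed T cell markers 4 had one, and their summed level was 674 to 766 in WT and 361 to 506 in cKO, most of it Lck. The summed level of 6 follicular B cell markers was 37973 to 42136 in WT and 29857 to 37921 in cKO, and that of 6 plasma cell markers, most of it Irf4, 9291 to 13644 and 7402 to 8907. Summed myeloid markers overlapped between the groups (1363 to 2022 and 1371 to 2057), as did erythroid and platelet markers (679 to 10110 and 776 to 4619). The sums of dendritic cell, NK cell, neutrophil, and stromal and endothelial markers overlapped as well. Of 5 tested dendritic cell markers 1 rose and 0 fell. This was Zbtb46, from 49.4 ± 13.2 to 94.4 ± 7.82 (SD, n = 3 each; limma adjusted p = 0.0252). Its call was lost without WT replicate 3 or cKO replicate 1 or 3 (up to 0.0797). The part of these shifts in the results below was not tested, and in bulk RNA fewer cells of a type and less RNA per cell cannot be told apart.

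Of the 9 measured members, 1 rose (Asns) and 3 fell (Atf4, Slc3a2 and Ppp1r15a) in the libraries labelled cKO, and 5 did not pass the test. Rose and fell are used only for genes with a limma adjusted p under 0.05 over the 14855 genes tested, and among all of these 10.1% were called, 5.08% higher and 4.97% lower in cKO. The median log2 difference, always cKO minus WT on the scale log2(normalised reads + 1), was 0.04 over the 9 members and -0.0009 over all genes tested. Groups were fully separate for 4 members, those that were called, against 31.6% of all genes tested. The gene of the transcription factor itself and that of the feedback phosphatase were lower, while the gene of 1 biosynthetic enzyme stood well above WT.

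**Figure D1:**
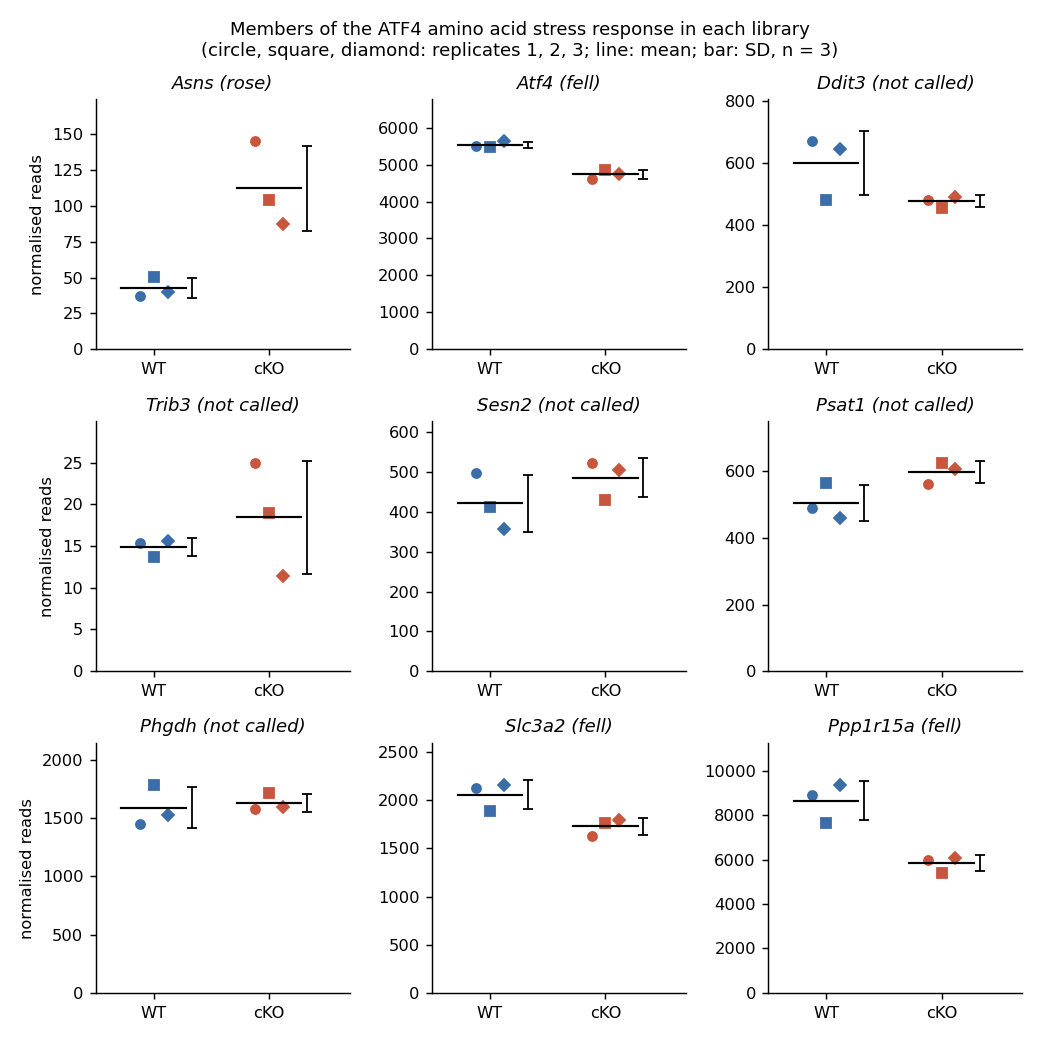
Normalised reads (vertical axes, from 0) of the 9 measured members in the 3 WT and 3 cKO libraries, with points for the libraries, a line for the group mean and a bar for the SD. Asns is higher in each cKO library than in each WT library, Atf4, Slc3a2 and Ppp1r15a are lower in each, and the other 5 overlap.

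Atf4 (ENSMUSG00000042406), which encodes the transcription factor, was read at 5496, 5485 and 5636 normalised reads across the WT libraries, against 4607, 4853 and 4741 across the cKO libraries. The groups did not overlap, and the spread within each was small, with means of 5539 ± 84.3 and 4734 ± 123 (SD, n = 3 each). The log2 difference of -0.23 ± 0.05 (SE; limma adjusted p = 0.0194) means that Atf4 fell by 14.6%, with a 95% interval from -20.8% to -7.86%. An exact permutation test gave p = 0.1, the smallest that 3 libraries against 3 allow, as it did for each of the 4 called members. The call was lost without WT replicate 1 (adjusted p = 0.05004), WT replicate 3 (0.0852), cKO replicate 1 (0.0558) or cKO replicate 3 (0.0705), while the log2 difference stayed between -0.245 and -0.2075 in the 16 alternatives.

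Ppp1r15a (ENSMUSG00000040435) encodes GADD34, the stress-induced subunit that brings a phosphatase to eIF2α and so ends the response. Its levels were 8919, 7661 and 9362 normalised reads across the WT libraries, against 5998, 5410 and 6093 across the cKO libraries. Each cKO library lay below the lowest WT library, and replicate 2 was the lowest of its group in both. The means of 8647 ± 883 and 5834 ± 370 (SD, n = 3 each) gave a log2 difference of -0.56 ± 0.08 (SE; limma adjusted p = 0.00239), so that Ppp1r15a fell by 32.4%, with a 95% interval from -40.0% to -23.9%. It was called in all 16 alternatives. Ppp1r15a is also induced early after cell stimulation, and the summed level of 19 immediate early genes was lower in cKO too, at 123964, 100740 and 123431 across the WT libraries, against 84912, 83103 and 85119 across the cKO libraries. Of these 19 genes 10 fell and 0 rose, with Jun at 14619 ± 1832 in WT and 8234 ± 1558 in cKO, Zfp36 at 13065 ± 2200 and 9743 ± 817 and Myc at 12993 ± 1292 and 9580 ± 1801 (SD, n = 3 each). Jun was called in all 16 alternatives, while Zfp36 and Myc lost their calls without WT replicate 1 or 3 or cKO replicate 3, Zfp36 also without cKO replicate 1, both under robust moderation and Myc with DESeq2 (adjusted p up to 0.15). Whether the fall of Ppp1r15a is separate from theirs was not tested. The 8 inducible heat shock genes, another stress group, summed to 43788 in WT replicate 1 and to 19777 to 24817 in the other 5 libraries. Of these 8 genes 2 fell and 1 rose. Hspa1a, which encodes an inducible HSP70, was read at 805, 79.0 and 251 normalised reads across the WT libraries, against 23.2, 55.9 and 58.8 across the cKO libraries (log2 difference -2.54 ± 0.65, limma adjusted p = 0.0339). Its near-identical copy Hspa1b gave -2.50 ± 0.65 (adjusted p = 0.0371), and reads may be split between these copies. WT replicate 1 was the highest library for both, and without it they gave -1.71 and -1.64 and were not called (adjusted p = 0.103 for both). Their calls were also lost without WT replicate 3 or cKO replicate 1 or 3, and under robust moderation (up to 0.232). Hspb1, a small heat shock protein gene of low level, rose from 14.6 ± 5.14 to 41.0 ± 6.62 (1.47 ± 0.32, adjusted p = 0.0185), a call lost without WT replicate 3 or cKO replicate 1 (up to 0.0593). The most abundant of the list were not called. Among these Hsp90aa1 stood at 11324 ± 3902 in WT and 10487 ± 638 in cKO, and Hspd1 at 4693 ± 993 and 4932 ± 348. Hsph1, at 5521 ± 4837 and 3308 ± 374, was highest in WT replicate 1, with 11094. Reads of the overlapping gene Tulp2 cannot be told apart from those of Ppp1r15a where strand is not stated.

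The sequence ahead of the RefSeq start of Ppp1r15a is shown because this member had the lowest log2 difference of the 9. It covers the 250 bases before the start (GRCm38.p6, chr7:45526269-45526518, minus strand), with capitals on a match to TGACGTCA, the palindromic cAMP response element that factors of the CREB and ATF family bind.

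Ppp1r15a: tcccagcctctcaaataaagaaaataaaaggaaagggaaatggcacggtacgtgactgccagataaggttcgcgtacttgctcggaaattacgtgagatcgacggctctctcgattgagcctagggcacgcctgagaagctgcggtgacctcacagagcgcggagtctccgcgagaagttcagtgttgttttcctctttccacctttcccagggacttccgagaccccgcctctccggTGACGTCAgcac

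That match begins at base -12, counted from the first base before the start as -1. The motif was chosen after the sequences had been seen, and 1.79% of the 32851 RefSeq promoter windows (250 bases before to 50 after a start) hold it. It stood in no window of the other members.

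Within a library the ratio of 2 genes does not depend on how the libraries were scaled, and length cancels between the groups. The ratio of Ppp1r15a to Ppp1r15b, the constitutive subunit for the same phosphatase, was 2.59, 2.25 and 2.78 across the WT libraries, against 1.78, 1.62 and 1.90 across the cKO libraries. All 3 cKO ratios were lower than the WT ratios. Ppp1r15b itself stood at 3407 ± 35.3 and 3308 ± 86.4 normalised reads (SD, n = 3 each), a log2 difference of -0.04 that was not called (limma adjusted p = 0.628). The pairs in the plot of ratios were chosen after the values were known, so they are a description without a test.

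Ddit3 (ENSMUSG00000025408), which encodes the proapoptotic factor CHOP, was lower on average but did not pass the test. Its levels were 671, 482 and 647 normalised reads across the WT libraries, against 482, 455 and 492 across the cKO libraries. WT replicate 2 lay within the cKO range, and the other WT libraries lay above it. The means were 600 ± 103 and 476 ± 19.3 (SD, n = 3 each), with a log2 difference of -0.32 ± 0.12 (SE; limma adjusted p = 0.113) and a 95% interval from -32.9% to -3.97% that is not adjusted for the number of genes. Without WT replicate 2 the log2 difference was -0.47 and the gene was called (adjusted p = 0.0161). WT replicate 2 was also the lowest WT library for Ppp1r15a, Slc3a2 and the summed immediate early genes. It had the highest sum of erythroid and platelet markers of the 6 libraries, 10110 normalised reads, and the part of this in the lower values was not tested. The ratio of Ddit3 to Atf4 within a library was 0.122, 0.0878 and 0.115 across the WT libraries, against 0.105, 0.0937 and 0.104 across the cKO libraries, and overlapped. Some reads of Ddit3 may belong to neighbours, since 4.38% of the 50-base words of its transcripts occur in transcripts of Mars or of a second annotated Ddit3 gene.

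Trib3 (ENSMUSG00000032715) encodes a pseudokinase that restrains ATF4 and is one of its targets. It was close to the limit of the table, with 15.4, 13.7 and 15.7 normalised reads across the WT libraries, against 25.0, 19.0 and 11.4 across the cKO libraries, from 11 to 28 recovered reads. The cKO libraries lay on both sides of the WT libraries. The means of 14.9 ± 1.06 and 18.4 ± 6.82 (SD, n = 3 each) gave a log2 difference of 0.22 ± 0.35 (SE; limma adjusted p = 0.73), which turned to -0.017 without cKO replicate 1. The 95% interval ran from -31.4% to 99.1%. Counting reads alone would give an SD of 3.95 in WT and 4.24 in cKO.

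Sesn2 (ENSMUSG00000028893) encodes a sestrin that senses leucine and restrains mTORC1. It was read at 499, 412 and 356 normalised reads across the WT libraries, against 523, 430 and 505 across the cKO libraries. The groups overlapped, since WT replicate 1 lay above cKO replicate 2. The log2 difference of 0.21 ± 0.12 (SE) did not pass (limma adjusted p = 0.305), with a 95% interval from -4.34% to 40.1%. Its paralogue Sesn1, better known as a target of p53 and FoxO factors, rose from 4373 ± 493 to 6620 ± 978 normalised reads (SD, n = 3 each; log2 difference 0.59 ± 0.10, adjusted p = 0.00725) and was called in all 16 alternatives. The ratio of Sesn2 to Sesn1 was 0.122, 0.0834 and 0.0870 in the WT libraries and 0.0679, 0.0740 and 0.0796 in the cKO libraries, lower in each of the latter. The overlapping genes Gm12981 of Sesn2 and Gm3329 of Psat1 cannot be told apart from them without strand.

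Asns (ENSMUSG00000029752), which encodes asparagine synthetase, had the largest log2 difference of the 9 members. Its levels were 37.3, 50.6 and 40.1 normalised reads across the WT libraries, against 145, 104 and 87.7 across the cKO libraries. Each cKO library lay well above the highest WT library, and cKO replicate 1 was the highest of all. The means were 42.7 ± 6.99 and 112 ± 29.7 (SD, n = 3 each), a log2 difference of 1.36 ± 0.22 (SE; limma adjusted p = 0.00566). This is 2.56 times the WT level (95% interval 1.82 to 3.61). These levels rest on 34 to 163 recovered reads per library. Counting alone would give an SD of 6.68 in WT, close to the one seen, and of 10.5 in cKO, where the SD seen was larger. Asns was called in all 16 alternatives, with a log2 difference between 1.157 (without cKO replicate 1) and 1.518 (without cKO replicate 3). Of all genes tested, 0.929% had a log2 difference at least as far from 0, although 71.4% had a higher mean level than Asns. For the other called members this share was larger, at 10.01% for Ppp1r15a, 32.95% for Slc3a2 and 36.23% for Atf4.

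The promoter of Asns is shown because this was the 1 member that rose. Its 250 bases before the RefSeq start (GRCm38.p6, chr6:7693210-7693459, minus strand) hold a match, in capitals, to TGATGNAA, the core of the composite element for C/EBP and ATF factors through which ATF4 acts on amino acid genes.

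Asns: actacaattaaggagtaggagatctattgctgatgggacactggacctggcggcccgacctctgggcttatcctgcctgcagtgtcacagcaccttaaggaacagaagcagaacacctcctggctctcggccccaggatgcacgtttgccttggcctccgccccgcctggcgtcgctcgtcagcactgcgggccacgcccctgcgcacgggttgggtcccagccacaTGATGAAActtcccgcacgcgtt

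Read on both strands, TGATGNAA stood in 3 of the 11 windows of the 10 members, those of Asns, Trib3 and Chac1, and in 3.97% of all 32851 windows. The 3 elements are set out below as stretches of 30 bases, each 5′ to 3′ on the strand of its gene, since they show the same core in different orientation and surroundings, with the match in capitals.

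Asns element (chr6:7693214-7693243, minus strand): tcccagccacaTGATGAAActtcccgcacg
Trib3 element (chr2:152344028-152344057, minus strand): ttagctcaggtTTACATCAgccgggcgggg
Chac1 element (chr2:119351038-119351067, plus strand): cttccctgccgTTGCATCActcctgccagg

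In Asns the core lies on the strand of the gene and begins at base -23. In Trib3 and Chac1 it lies on the opposite strand, so the letters shown are its reverse complement, beginning at base 15 after the start and at base -193. Of the 2 measured genes among these 3, Asns rose and Trib3 did not pass the test, and a match is a description of letters, not a site in use. The windows of Atf4, Ppp1r15a, Ddit3, Sesn2, Psat1, Phgdh and Slc3a2 did not hold these letters.

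Asns rose while Atf4 fell, so their ratio moved further than either gene. The ratio of Asns to Atf4 was 0.00679, 0.00922 and 0.00712 across the WT libraries, against 0.0315, 0.0215 and 0.0185 across the cKO libraries. The lowest cKO ratio was above the highest WT ratio, and the mean log2 ratio was 1.60 higher in cKO.

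**Figure D2:**
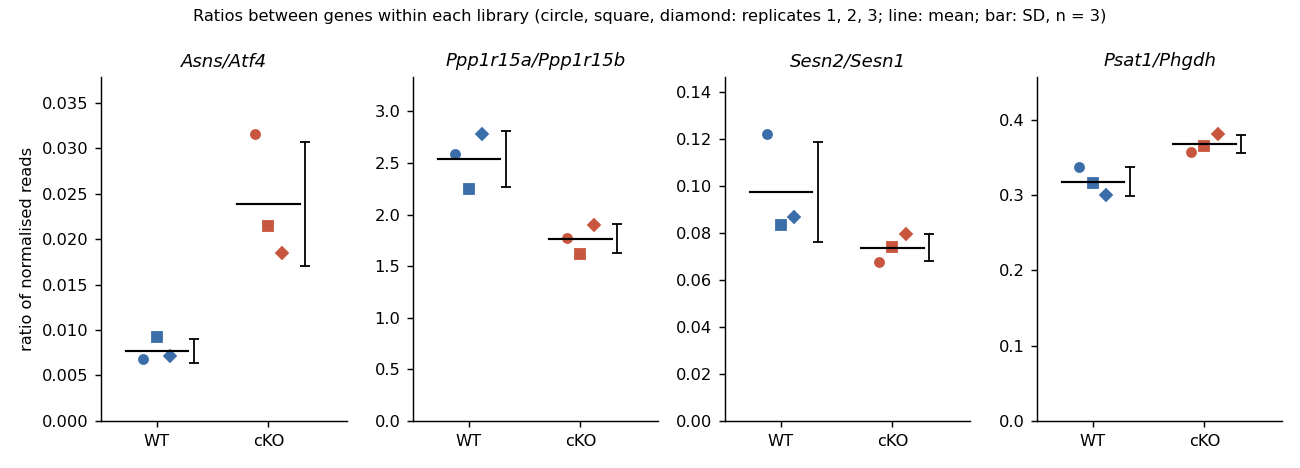
Ratios of normalised reads between 2 genes of the same library (vertical axes, from 0) for Asns/Atf4, Ppp1r15a/Ppp1r15b, Sesn2/Sesn1 and Psat1/Phgdh in the 3 WT and 3 cKO libraries, with the mean as a line and the SD as a bar. For the first and last pair each cKO ratio is above the WT ratios, and for the other pairs each is below them.

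Psat1 and Phgdh encode enzymes of the serine synthesis pathway, which ATF4 also controls. Psat1 (ENSMUSG00000024640), the aminotransferase of the second step, was read at 489, 564 and 459 normalised reads across the WT libraries, against 563, 625 and 607 across the cKO libraries. WT replicate 2 and cKO replicate 1 nearly coincided, and the other libraries were apart by group. The log2 difference of 0.25 ± 0.09 (SE) did not pass over all genes (limma adjusted p = 0.108), with a 95% interval from 3.51% to 37.1% that is not adjusted for the number of genes.

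Phgdh (ENSMUSG00000053398), the dehydrogenase of the first step, was read at 1447, 1783 and 1528 normalised reads across the WT libraries, against 1574, 1711 and 1594 across the cKO libraries. The cKO libraries lay inside the WT range. Its log2 difference of 0.04 ± 0.08 (SE; limma adjusted p = 0.786) had a 95% interval from -8.77% to 16.0%, and turned to -0.0221 without WT replicate 1. This gene is uncertain, since 47.8% of the 50-base words of its transcripts also occur in transcripts of 23 other annotated genes. The ratio of Psat1 to Phgdh was 0.338, 0.316 and 0.300 in WT and 0.358, 0.365 and 0.381 in cKO, higher in each cKO library.

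Slc3a2 (ENSMUSG00000010095) encodes CD98 heavy chain, which carries the light chains of several amino acid exchangers to the cell surface and also binds integrins. It was read at 2128, 1889 and 2161 normalised reads across the WT libraries, against 1628, 1769 and 1794 across the cKO libraries. The highest cKO library lay just below the lowest WT library. The means of 2059 ± 149 and 1730 ± 89.8 (SD, n = 3 each) gave a log2 difference of -0.25 ± 0.07 (SE; limma adjusted p = 0.0436), so that Slc3a2 fell by 15.9%, with a 95% interval from -24.2% to -6.64%. The call was near the threshold and was lost without WT replicate 1 (adjusted p = 0.146), WT replicate 3 (0.156), cKO replicate 1 (0.118) or cKO replicate 3 (0.0864). A repeat makes up 3.51% of the 50-base words of its transcripts and is shared with 672 other genes. The ratio to Slc7a5, a light chain that pairs with it, overlapped between the groups, at 3.82, 2.87 and 3.90 in WT and 2.46, 3.03 and 3.56 in cKO.

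**Figure D3:**
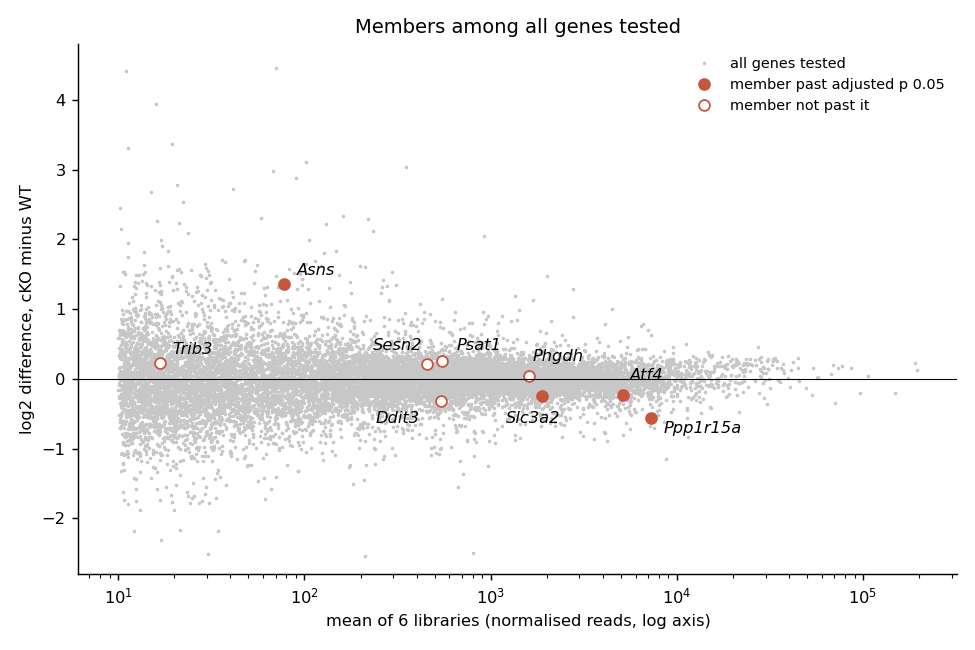
Log2 difference (cKO minus WT, vertical axis) against the mean of the 6 libraries (normalised reads, log axis) for the 14855 genes tested in grey, with the 9 measured members as filled circles where called and open circles where not. Asns at 1.36 and Ppp1r15a at -0.56 lie farthest from 0 among the 9 measured members, while Atf4 and Slc3a2 lie nearer to 0.

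Levels can be set against each other between genes only per length, here as normalised reads per kilobase of annotated exon. In WT the order was Ppp1r15a (2944 ± 301), Atf4 (2349 ± 35.7), Phgdh (638 ± 70.5), Slc3a2 (584 ± 42.1), Ddit3 (350 ± 60.1), Sesn2 (122 ± 20.7), Psat1 (118 ± 12.7), Asns (15.6 ± 2.56) and Trib3 (7.02 ± 0.497), with SD and n = 3. The neighbours Phgdh and Slc3a2, and Sesn2 and Psat1, did not differ beyond their SDs. In cKO the level of Atf4 was 2008 ± 52.2 and that of Ppp1r15a 1986 ± 126, within their SDs of each other, so the gap between the leading members of WT was not seen there. Asns at 41.1 ± 10.8 stayed the lowest but for Trib3 at 8.67 ± 3.21, so the member with the largest rise was still among the least abundant. Per length, the amount of Asns RNA in cKO was far below that of Phgdh (654 ± 29.8) and below that of Psat1 (141 ± 7.48).

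The genes whose profile over the 6 libraries was nearest to that of Atf4, by the root mean square difference between centred log2 values, were Cd84 (0.0173), Heca (0.0242), Mical1 (0.0246), Ccnj (0.0257) and Vps8 (0.0275). Cd84 encodes a receptor of the SLAM family and stood at 3629 ± 71.4 and 3058 ± 73.9 normalised reads (SD, n = 3 each). Among the members the nearest was Slc3a2 (0.0624), followed by Ddit3 (0.161), Phgdh (0.166) and Ppp1r15a (0.199), and the farthest was Asns (0.835). The measure rests on 6 libraries, 3 of each group. It includes the size of the difference between the groups, so a near gene need not share the call or direction of Atf4. Ccnj and Vps8 were not called (limma adjusted p = 0.0782 and 0.0822). Phgdh, with a log2 difference of 0.04, was nearer than Ppp1r15a, with -0.56.

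Beyond the members, 8 lists of the wider pathway held 96 different genes, of which 85 were tested. Of these 9 rose and 3 fell, together 14.1% against the 10.1% of all genes tested, and the median log2 difference was 0.07. In each list at most 2 genes were called in 1 direction. The lists below give means with SD over 3 libraries a group.

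Upstream of ATF4, 1 of 8 genes for eIF2α kinases, their cofactors and the phosphatase subunit rose and 0 fell (median log2 difference 0.05). Eif2ak2, the gene of PKR and itself induced by interferon, rose from 1329 ± 54.3 to 1581 ± 79.4 normalised reads (log2 difference 0.25 ± 0.06, limma adjusted p = 0.031). It lost its call without WT replicate 1, 2 or 3 or cKO replicate 1 or 3 (adjusted p up to 0.12). The genes of the highest mean, Gcn1, which helps activate GCN2, and Eif2ak3, which encodes PERK, gave -0.06 and -0.05 and were not called (adjusted p = 0.576 and 0.648).

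Among 10 tested bZIP partners and relatives, 1 rose and 1 fell (median 0.09). Cebpb, a C/EBP factor that pairs with ATF4, was read at 730, 649 and 636 normalised reads across the WT libraries, against 1050, 937 and 914 across the cKO libraries. Every cKO library was above every WT library (log2 difference 0.53 ± 0.08, limma adjusted p = 0.00429), also in all 16 alternatives as a call. Atf3, which is both an ATF4 target and an immediate early gene, fell from 692 ± 213 to 382 ± 116 (-0.86 ± 0.24, adjusted p = 0.0472). Its call was lost without any 1 of WT replicates 1 and 3 and cKO replicates 1, 2 and 3, under robust moderation and with DESeq2, with an adjusted p of up to 0.216. Atf7 and Nfe2l2, the most abundant of the list, gave -0.15 and 0.07 and were not called (adjusted p = 0.214 and 0.585).

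Of 10 tested amino acid transporters 1 fell and 0 rose (median -0.06). Slc38a2, the glutamine and alanine carrier SNAT2 that is a classical target of the response, was read at 5912, 4444 and 4999 normalised reads across the WT libraries, against 3420, 3886 and 3312 across the cKO libraries. The groups did not overlap (log2 difference -0.53 ± 0.10, limma adjusted p = 0.00928), and the call held in all 16 alternatives. Slc1a5, the glutamine carrier ASCT2, gave -0.20 and Slc38a1 -0.15, both without overlap between the groups but not called (adjusted p = 0.0603 and 0.169). Slc7a11, the cystine carrier, had no row in the table.

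In the list of serine, glycine, one-carbon, proline and transsulfuration enzymes 1 of 11 rose and 0 fell (median -0.03). Mthfd2, a mitochondrial enzyme of folate metabolism, rose from 420 ± 31.9 to 550 ± 37.9 normalised reads (log2 difference 0.39 ± 0.09, limma adjusted p = 0.0237), and lost its call without WT replicate 1, 2 or 3 or cKO replicate 3 (up to 0.0966). Shmt2 and Pck2 gave -0.04 and -0.03 and were not called (adjusted p = 0.745 and 0.813). Of 13 aminoacyl-tRNA synthetases 1 rose, 0 fell and 12 had a log2 difference above 0 (median 0.12). Yars rose from 774 ± 14.3 to 915 ± 45.9 (0.24 ± 0.07, adjusted p = 0.0441), a call lost without any 1 of the 6 libraries (up to 0.126), with DESeq2, when totals were equalised without immunoglobulin genes, and with the replicate number as a block. Vars and Eprs, the most abundant, gave -0.16 and 0.19 and were not called (adjusted p = 0.139 and 0.0759).

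Among 13 tested stress effectors 2 rose and 0 fell (median 0.07). Ddit4, which encodes REDD1, an inhibitor of mTORC1, was read at 1843, 2269 and 1977 normalised reads across the WT libraries, against 3424, 2841 and 2695 across the cKO libraries. All cKO libraries were above all WT libraries (log2 difference 0.55 ± 0.10, limma adjusted p = 0.00735), and the call held in all 16 alternatives. Bbc3, the proapoptotic gene of PUMA, rose from 150 ± 16.8 to 231 ± 21.7 (0.62 ± 0.13, adjusted p = 0.0164, and 0.0682 without WT replicate 3). Both are also targets of p53 or FoxO factors. The most abundant of the list, ahead of Ddit4, was Sqstm1, which gave 0.00 and was not called (adjusted p = 0.981).

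Of 8 paralogues of the members 1 rose, Sesn1 as above, and 0 fell (median -0.11). Sesn3, the most abundant, gave -0.17 (limma adjusted p = 0.0746). The paralogues of Trib3 had log2 differences on the other side of 0, at -0.55 for Trib1 and -0.79 for Trib2, neither of them called (adjusted p = 0.0596 and 0.0538). These were named after their values were seen.

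In the IRE1 and ATF6 arms, the other branches of the unfolded protein response, 2 of 14 genes rose and 1 fell (median 0.08). Pdia4, a disulphide isomerase, rose from 22990 ± 889 to 31867 ± 4312 normalised reads (log2 difference 0.46 ± 0.09, limma adjusted p = 0.0127) and Edem1, a factor of degradation from the endoplasmic reticulum, from 5471 ± 221 to 6615 ± 569 (0.27 ± 0.07, adjusted p = 0.0314). Dnajb9, a cochaperone induced through XBP1, fell from 2728 ± 371 to 1909 ± 236 (-0.51 ± 0.11, adjusted p = 0.0166). Hspa5, the central chaperone BiP, gave -0.09 and was not called (adjusted p = 0.529). Pdia4 lost its call without WT replicate 1 or cKO replicate 3 (up to 0.0606), Dnajb9 without WT replicate 1 or 3 (up to 0.0776) and Edem1 without WT replicate 1, 2 or 3 or cKO replicate 1 or 3 (up to 0.12).

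**Figure D4:**
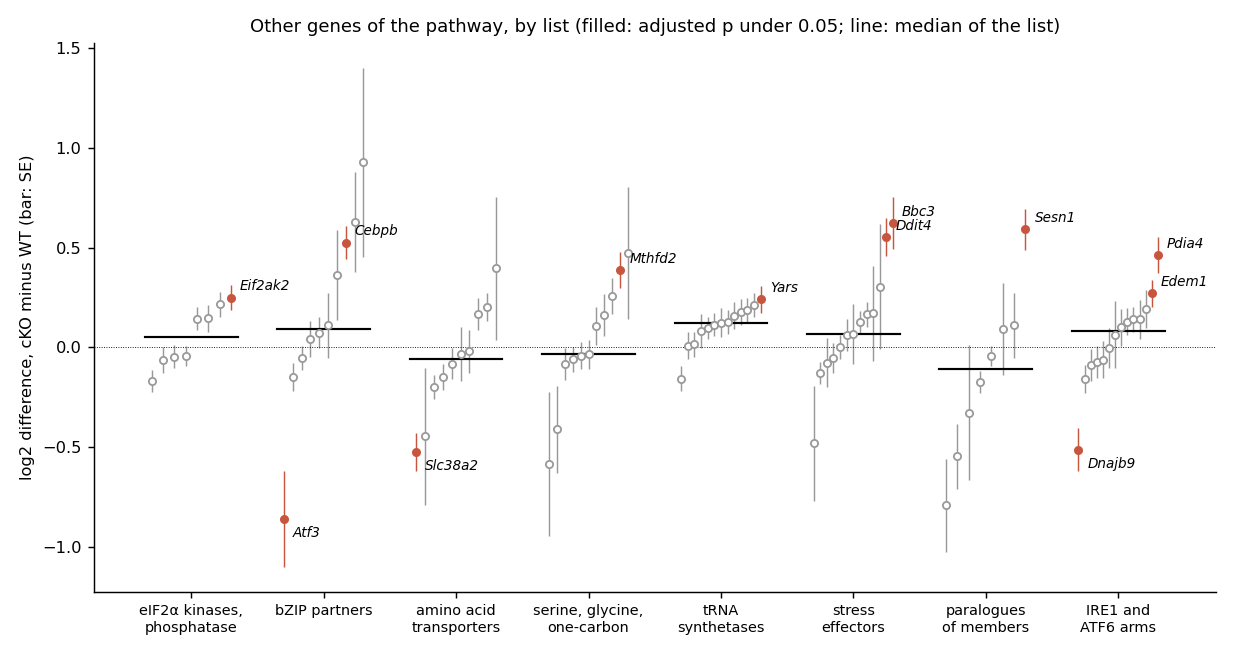
Log2 difference (cKO minus WT, vertical axis) with its SE for each tested gene of the 8 pathway lists, in order within a list, with called genes filled and named and a line at the median of each list. The medians lie between -0.11 and 0.12, and the 12 called genes, 9 above 0 and 3 below, are spread over all lists.

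The core TGATGNAA was also counted in the promoters of these lists, as a description. Of 77 genes with a RefSeq window 17 held it, among them 5 of 8 aminoacyl-tRNA synthetases (Aars, Gars, Iars, Tars and Yars), 3 of 9 transporters and 0 of 12 genes of the IRE1 and ATF6 arms. Listed genes without a matched window were left out. The share over all windows was 3.97%, counted per window, while the counts here are per gene. The synthetases had been listed as genes induced by ATF4, so their count partly reflects that choice. Of the 12 called genes of the lists, Atf3 and Yars were among these 17, the former lower and the latter higher in cKO.

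**Figure D5:**
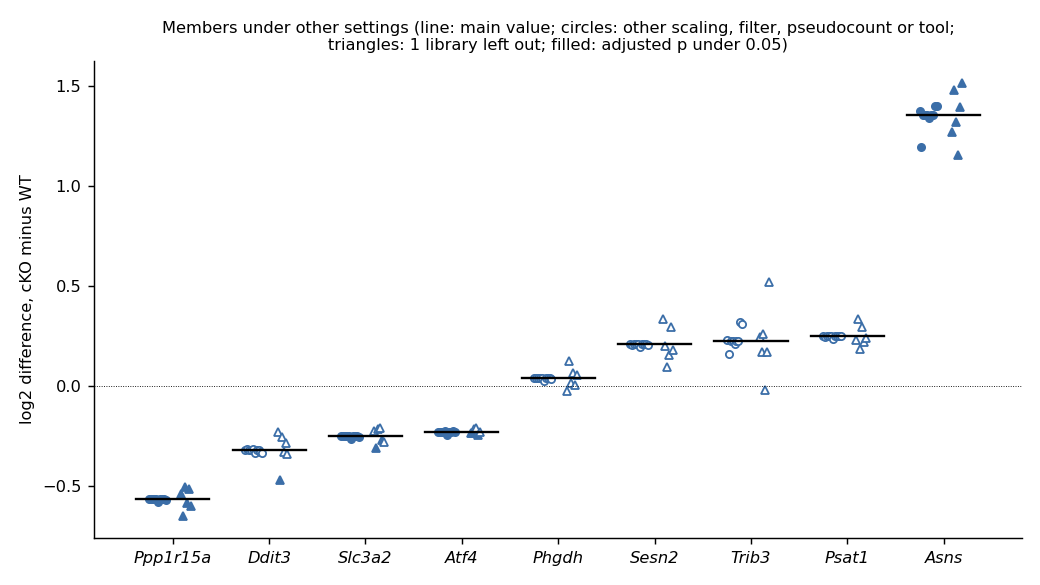
Log2 difference (cKO minus WT, vertical axis) of each measured member in all 6 libraries (line) and under 16 alternatives, circles for another pseudocount, filter, scaling, block or tool and triangles for 1 library left out, filled where the adjusted p is under 0.05. Asns and Ppp1r15a are filled throughout, while Atf4 and Slc3a2 each have 4 open triangles.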

How the data were processed

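The submitters' processing notes name Trimmomatic 0.36, STAR 2.5.2b, bcl2fastq 2.17 and the mouse build mm9. How reads were counted and normalized, with which annotation and strand setting, is not given in the sources used here. The deposited values are a signal, read counts that the authors scaled by 1 factor per library. This was read from the values, since 100% were whole multiples of 1 read (0.891 to 1.10) within 0.02 of a read. In cKO replicate 1 the smallest value was 2 reads. Each gene had at least 61 reads over the 6 libraries. GENCODE M21 named 14808 identifiers and left 56 unnamed, and Gcn1 was matched through its older symbol Gcn1l1. Exon lengths and shared 50-base words came from GENCODE M21, promoters from RefSeq (GRCm38.p6), which matched all 10 members.

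The test was limma 3.58.1 in R 4.3.3 on log2(value + 1), with genotype as the only term, two-sided, on the 14855 genes with a mean of at least 10 (9 were left out), with Benjamini-Hochberg adjustment over all of them. Such differences understate changes of low genes. Alternatives included edgeR 4.0.16 and DESeq2 1.42.0 on recovered reads. The code was tested on simulated data. Members and lists were chosen with earlier results of these data known. The named genes are the members, up to 4 called and the 2 most abundant genes of each pathway list, up to the 3 most abundant of each marker or quality list, and the 5 genes nearest to Atf4. The called marginal zone, dendritic cell and heat shock genes were named in addition, after their values were seen.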

Additional observations from a re-analysis of the deposited data

How the results depend on the processing

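Of 143 values of single members under the 16 alternatives, 132 kept their direction and their side of the threshold, 8 lost a call (Atf4 and Slc3a2, 4 each), 1 gained one (Ddit3, without WT replicate 2) and 2 turned direction, neither of them called: Phgdh (-0.0221 to 0.128 with 1 library left out, lowest without WT replicate 1) and Trib3 (-0.017 to 0.519, lowest without cKO replicate 1). The cause was not tested. Without 1 library the number of members called was 2 to 5 and that of all genes called 497 to 1730, against 4 and 1494. The lower counts of genes came from leaving out WT replicate 1 (510), WT replicate 3 (497), cKO replicate 1 (927) or cKO replicate 3 (531), each with 2 members called. Other pseudocounts, filters, scalings and tools left 4 members called, Asns, Atf4, Slc3a2 and Ppp1r15a. Trib3 could not be fitted with the filter at a mean of 50. The median log2 difference of all genes was 0.000583 under TMM and -0.0154 with totals equalised without immunoglobulin genes. Deviations of same-numbered libraries from their group means correlated at -0.0745, -0.0200 and 0.147 across genes. Libraries of different number were not compared, so these values cannot decide whether the replicate numbers pair the libraries. With the number as a block, 4 members and 1551 genes were called. Depth limits Trib3 most, at 11 to 28 reads.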
